A study of Dicosmoecus gilvipes with 20 samples.

Results

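Thorax RNA of larvae of the caddisfly *Dicosmoecus gilvipes* held at 20°C was compared with that of larvae held at 15.5°C, the 2 coolest of the 4 exposure temperatures of a laboratory warming experiment. The 5 libraries whose titles give 20°C and the 5 whose titles give 15.5°C were taken, which is 10 of the 20 libraries of the series, and the libraries of 25°C and 28.6°C entered only the estimate of the spread and the comparisons that name them. All larvae were in the fifth instar, came from the South Fork of the Eel River in California, shared a cooler holding temperature in the laboratory and were brought to the exposure temperature over some days before they were held there for a day. The thorax was dissected to favour muscle over gut, equal amounts of RNA of each larva were pooled within a temperature, and the 5 libraries of a temperature therefore hold the same animals. The spread between them measures library preparation, sequencing and the division of reads, the p-values compare pools of larvae, and a difference between the pools cannot be told apart from a difference between the animals in them.

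Caddisfly larvae feed and store protein in the last instar for the metamorphosis that follows. In insects the fat body makes hexamerins (arylphorins, larval serum proteins and juvenile hormone-suppressible proteins), which circulate in the haemolymph and are taken up again as a reserve of amino acids for the pupa. Heat shock proteins and other chaperones fold proteins and bind those that unfold, glutathione S-transferases and cytochromes P450 act on foreign compounds and hormones, and trypsins, chymotrypsins, amylases and lipases digest food.

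Expression was measured by RNA-seq. The authors mapped reads to contigs that they had assembled without a genome and divided reads that fitted several contigs between them as estimated counts. Here the estimated counts of all contigs of a subcomponent, the assembler's unit for the transcripts of about 1 gene, were summed. One subcomponent, comp65386_c0, was left out because it held 45.0% of the counts of replicate 1 and 77.0% of those of replicate 4 at 20°C, against 0.51% to 1.13% in the other 20°C libraries and 0.51% to 2.45% at 15.5°C. It is called ribosomal-like here as a working name that rests on this uneven share, with no sequence to check it. The counts that remained were 5484995 and 2485595 in replicates 1 and 4 of 20°C and between 7383431 and 14075957 in the other libraries of both temperatures. Levels are CPM, counts scaled by TMM to a common library total, which matches libraries on the bulk of their transcripts, and are not divided by length, so that they compare libraries and not genes. TMM factors were 0.785 to 0.866 at 20°C and 1.11 to 1.17 at 15.5°C. Reads that fitted a single contig were 41.5% to 42.0% of these counts at 20°C and 45.9% to 46.1% at 15.5°C. The longest read position was 188 in replicate 3 of 20°C and in replicates 3, 4 and 5 of 15.5°C, and 99 in the other libraries of both temperatures. Libraries with 99 are called short-read below, and the labels do not say what sets the 2 read forms apart.

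Of 15220 subcomponents tested, 192 were called higher at 20°C, which is 1.26% of those tested, and 65 were called lower, which is 0.427%. A call required a Benjamini-Hochberg adjusted p below 0.05 in edgeR's quasi-likelihood test together with a ratio of 20°C over 15.5°C that reached 4 or did not exceed 0.25. The adjusted p alone was passed by 4586 higher and 4109 lower subcomponents, 30.1% and 27.0% of those tested, so that a p below the threshold was the common state of a subcomponent in these pools. Below, rose, fell, higher and lower are used for what passed the adjusted p, and called for what passed both criteria. The median log2 fold change over all tested was 0.03. Scaling by library size alone, without TMM, moved this median to -0.46 and gave 113 higher and 168 lower calls, so that 40.2% of calls were higher in place of 74.7%. Directions below are relative to the bulk of transcripts, and where a named gene or a list turns under the other scaling its value there is given. Of 33 named subcomponents called higher, 16 were no longer called with library size alone, where their log2 fold changes were 1.57 to 1.95. These 16 are larval serum protein 1, the glutathione S-transferases comp64917_c1 and comp61067_c1, CYP12A2/301a1, the xanthine dehydrogenase comp65052_c1, membrane alanyl aminopeptidase, the protease comp59974_c0, lipase 3, beta-1,3-glucan-binding protein, peptidoglycan-recognition protein LB, ornithine aminotransferase, alanine-glyoxylate aminotransferase 2, acid trehalase-like protein 1, the sulfate anion transporter, axonemal dynein heavy chain 6 and lethal(2)essential for life (comp54376_c0).

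**Figure D1:**
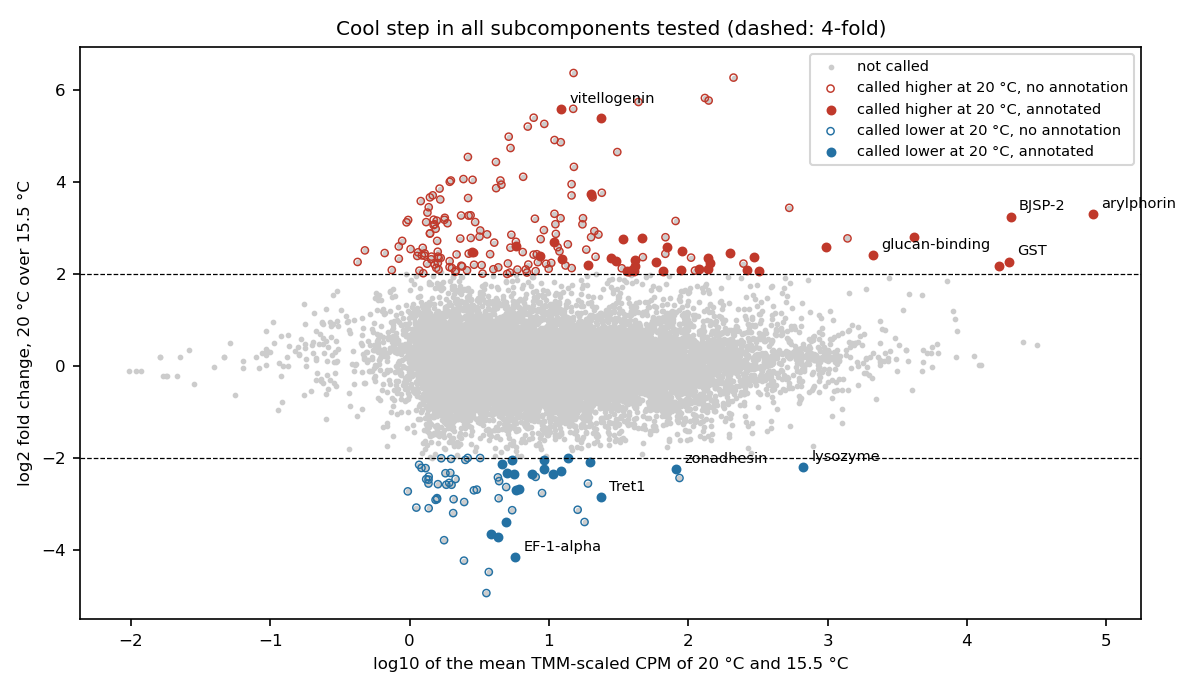
The cool step in all subcomponents tested. The x axis is log10 of the mean TMM-scaled CPM over both temperatures, the y axis is the log2 fold change of 20°C over 15.5°C, red marks the 192 subcomponents called higher at 20°C, blue the 65 called lower, filled points have an annotation and open ones have none. Arylphorin, BJSP-2 and a glutathione S-transferase stand at the right above the upper dashed line of 4-fold, at log2 fold changes of 3.31, 3.25 and 2.27.

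Names come from the authors' annotation, which covers transcripts that they had listed as differentially expressed in these same libraries, so that the share of named subcomponents that changed is no independent evidence. Among the 531 annotated subcomponents tested, 38 were called higher (7.16%) and 20 lower (3.77%), and 251 were higher and 219 lower by the adjusted p, with a median log2 fold change of 0.12. These shares are the background for the gene groups that follow. The 5 libraries of 20°C lay wholly above or wholly below the 5 of 15.5°C for 6146 of all subcomponents tested, or 40.4%, and for 218 of the 257 called, 153 higher and 65 lower. Subcomponents called higher had a median of 10.8 CPM at 20°C and 0.952 CPM at 15.5°C, and 99 of them reached a mean of 10 CPM at 1 of the temperatures. For those called lower the medians were 0.592 CPM at 20°C and 7.12 CPM at 15.5°C, and 20 of them reached that mean.

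The storage proteins of the haemolymph made up the largest change in the composition of the libraries. The 5 hexamerin-type subcomponents held 16.8% to 18.4% of counts in the libraries of 20°C and 2.89% to 3.06% in those of 15.5°C, with 2.17% to 2.77% at 25°C and 1.10% to 1.59% at 28.6°C. All 5 rose and 4 of them were called. In bulk tissue, more fat body in the pieces dissected and more of this RNA per fat body cell cannot be told apart. The main one, comp64679_c1, annotated as arylphorin subunit beta, basic juvenile hormone-suppressible protein 2 (BJSP-2) and hexamerin, took 11.9% of counts on average at 20°C, where it ranked first, and 1.70% at 15.5°C, where it ranked 3. Its level was 146500, 144900, 157400, 130800 and 153200 CPM in replicates 1 to 5 of 20°C, against 15450, 14200, 14670, 14820 and 14760 CPM in those of 15.5°C. The groups were far apart, with the lowest 20°C library in replicate 4, and the log2 fold change was 3.31 ± 0.12 (adjusted p = 3.1e-20), a 9.92-fold rise. Values after ± here and below were worked back from the test result and are no fitted standard errors. Where a temperature has few counts, they can be smaller than the counting error of those counts alone. Among such cases below are comp64679_c0, vitellogenin, comp66013_c0 and the elongation factors 1-alpha and 2, whose uncertainty is understated.

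A second BJSP-2 subcomponent, comp59150_c0, behaved alike. It had 35840, 37580, 39910, 34330 and 39040 CPM at 20°C, against 3901, 3842, 3967, 3939 and 4036 CPM at 15.5°C, and rose by 3.25 ± 0.08 on the log2 scale (adjusted p = 5.9e-24). Nearly all of its reads, 99.8%, fitted this contig only, while 0.665% of those of comp64679_c1, which has 6 contigs, did. Larval serum protein 1 beta chain, comp56711_c0, another hexamerin, had 25100 to 30060 CPM at 20°C and 5936 to 6461 CPM at 15.5°C, a log2 fold change of 2.17 ± 0.07 (adjusted p = 2.6e-21). The remaining abundant one, comp64905_c0, stayed under the 4-fold criterion at 4161 to 4538 CPM at 20°C and 1126 to 1188 CPM at 15.5°C, with a log2 fold change of 1.92 ± 0.08 (adjusted p = 1.3e-18).

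A pair of scarce subcomponents of this kind was near the limit of detection at 15.5°C. The BJSP-2 contig comp64679_c0, a neighbour of the main arylphorin in the assembly, had 42.1, 42.0, 48.0, 46.5 and 53.3 CPM at 20°C, against 0.770, 0.432, 1.503, 1.54 and 0.539 CPM at 15.5°C, where its estimated counts over the 5 libraries summed to 46. The log2 fold change was 5.39 ± 0.17 (adjusted p = 7.2e-22), where the ± is smaller than the counting error of those 46 counts. Vitellogenin, comp52536_c0, the yolk protein precursor made by the fat body of insects, had 23.8, 26.1, 26.2, 24.2 and 20.5 CPM at 20°C, against 0, 0.309, 0.347, 0.591 and 0.108 CPM at 15.5°C, or 727 counts against 14. Its log2 fold change was 5.59 ± 0.20 (adjusted p = 5.0e-20), and at 25°C and 28.6°C its means were 0.258 and 0.534 CPM, so that the 20°C pool alone held more than a trace of it. Without replicates 1 and 4 of 20°C it was present in too few libraries to pass the filter on low counts. Apolipophorin-3, a lipid carrier of the haemolymph, went the other way, with 1077 to 1223 CPM at 20°C, 1331 to 1470 CPM at 15.5°C and a log2 fold change of -0.28 ± 0.06 (adjusted p = 0.00031). In the list of storage and haemolymph transport proteins, 6 of 7 rose, 5 of them called, and 1 fell, with a median log2 fold change of 3.25.

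**Figure D2:**
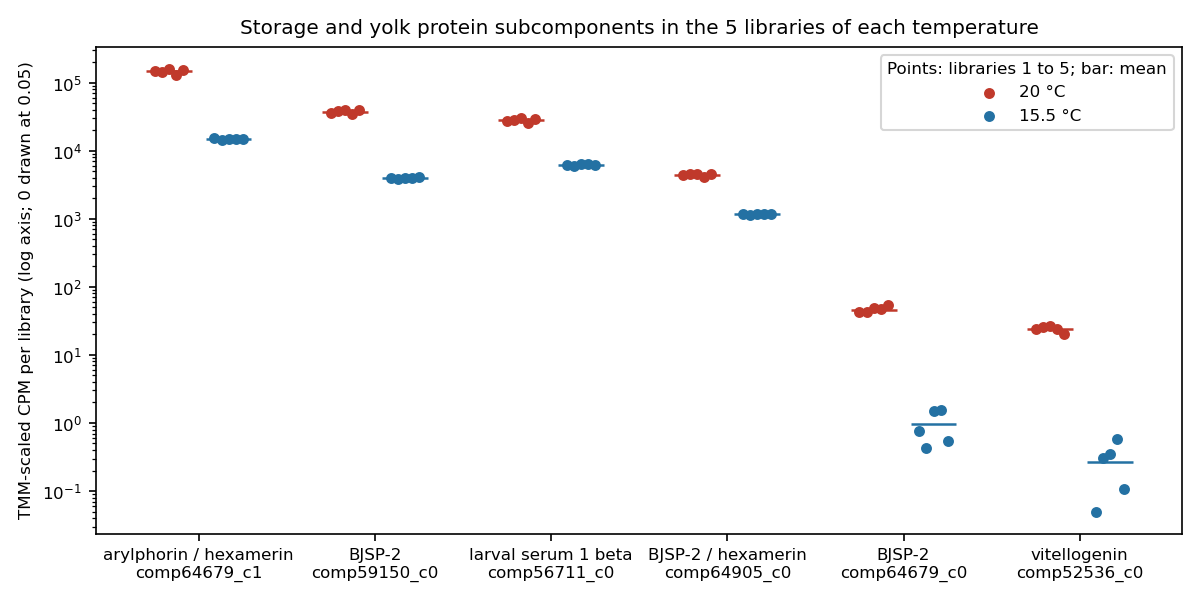
Level of 6 storage and yolk protein subcomponents in each library, as TMM-scaled CPM on a log axis, with 20°C in red left of 15.5°C in blue, points for libraries, bars for means and a value of 0 drawn at 0.05. No library of 15.5°C reaches a library of 20°C in any of them, from 146500 against 14780 CPM on average for the main arylphorin to 24.2 against 0.271 CPM for vitellogenin.

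Most members of the detoxification list rose. In the list of detoxification and redox genes 33 of 46 rose and 9 fell, 6 were called higher and 2 lower, and the median log2 fold change was 0.74 (26 higher, 14 lower and 0.23 with library size alone). The keywords of this list also catch 2 metallophosphoesterases, 3 phosphodiesterases and a dolichyl glucosyltransferase, which have other roles. Of 9 glutathione S-transferases, which attach glutathione to reactive compounds, 8 rose, none fell and 3 were called. The largest change was that of comp60932_c0, with 7179, 6994, 8116, 6824 and 7520 CPM at 20°C, against 1058, 999, 1079, 1085 and 1053 CPM at 15.5°C, a log2 fold change of 2.80 ± 0.09 (adjusted p = 7.2e-22). The transferase comp64917_c1 had 28040 to 36180 CPM at 20°C and 6529 to 7567 CPM at 15.5°C, and its share of counts was 2.43% to 2.84% against 0.766% to 0.842%. It rose by 2.27 ± 0.08 on the log2 scale (adjusted p = 7.7e-20). The scarcer comp61067_c1, at 62.5 to 69.7 CPM at 20°C and 13.8 to 16.3 CPM at 15.5°C, rose by 2.18 ± 0.06 (adjusted p = 2.4e-22), but counted on reads that fit 1 contig only its log2 fold change was 0.07, and 1.81% of its reads are of that kind.

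Cytochromes P450, oxidases of foreign compounds and of hormones, went both ways, with 12 of 17 higher and 4 lower, 2 called in each direction. The mitochondrial CYP12A2/301a1 subcomponent comp64884_c2 had 91.6 to 101 CPM at 20°C and 18.1 to 21.3 CPM at 15.5°C (log2 fold change 2.27 ± 0.07, adjusted p = 1.6e-22). In the opposite direction the CYP6j1 subcomponent comp63388_c6 had 3.82, 2.17, 4.17, 2.32 and 3.86 CPM at 20°C, against 21.4, 18.2, 16.4, 16.5 and 18.01 CPM at 15.5°C (log2 fold change -2.35 ± 0.12, adjusted p = 3.1e-16). The other lower call, CYP4g15, comp59258_c0, was lost without replicates 1 and 4 of 20°C. Both enzymes of ecdysteroids that carry a name rose: CYP18a1, which inactivates 20-hydroxyecdysone in Drosophila, by 1.44 ± 0.08 (79.2 against 29.5 CPM on average) and ecdysone 20-monooxygenase, which makes it, by 1.07 ± 0.08 (26.8 against 12.2 CPM). Xanthine dehydrogenase, an enzyme of purine breakdown, rose by 1.5 ± 0.05 (comp64423_c0, 361 to 396 CPM at 20°C and 128 to 141 CPM at 15.5°C), the related comp65052_c1 rose by 2.10 ± 0.05, and peroxiredoxin-6, which removes peroxides, rose by 1.78 ± 0.09.

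Most digestive enzymes also rose with TMM scaling. Trypsins and chymotrypsins, the serine proteases of the midgut, rose in 15 of 21 cases and fell in 3, with a median log2 fold change of 0.56, and with scaling by library size alone 9 rose and 6 fell. Chymotrypsin BI, comp58365_c0, had 1534, 1740, 1816, 1472 and 1785 CPM at 20°C, against 283, 267, 288, 288 and 271 CPM at 15.5°C. Its log2 fold change of 2.58 ± 0.07 (adjusted p = 2.4e-23) was the only call among them. The abundant trypsin comp63940_c0 had 9483 to 12120 CPM at 20°C and 4612 to 4974 CPM at 15.5°C (log2 fold change 1.2 ± 0.06). Membrane alanyl aminopeptidase, comp63615_c0, which trims peptides at the gut surface, had 230 to 244 CPM at 20°C and 48.8 to 51.1 CPM at 15.5°C (log2 fold change 2.24 ± 0.04, adjusted p = 6.0e-26), and on reads that fit 1 contig only the log2 fold change was 1.56.

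Among peptidases as a whole, 27 of 42 rose and 12 fell, with 4 called higher and 1 lower and a median of 0.55, while with library size alone 17 rose and 16 fell, with a median of 0.05. The list holds 3 names of inhibitors and an inactive dipeptidyl peptidase, and the list of peptidase inhibitors itself has 1 member, which fell by 0.54. A serine protease named for Limulus clotting factor C and snake, comp59974_c0, had 42.2 to 52.5 CPM at 20°C and 7.47 to 11.0 CPM at 15.5°C (log2 fold change 2.35 ± 0.09, adjusted p = 6.7e-20). Cathepsin L 2, comp54296_c0, a lysosomal peptidase just under the abundance asked of a named gene, was called at 2.60 with 9.99 against 1.54 CPM on average. The call in the other direction was that of ADAM22, comp57818_c5, with 0.768 to 1.80 CPM at 20°C and 7.66 to 11.3 CPM at 15.5°C. Its log2 fold change of -2.70 ± 0.17 (adjusted p = 1.3e-14) became -1.52 with effective counts, which adjust for length bias.

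Carbohydrases and lipases moved the same way in most members, with 17 of 21 higher and 3 lower, 1 called each way and a median log2 fold change of 1.05 (13 higher, 4 lower and 0.55 with library size alone). Alpha-amylase B, comp57321_c0, which splits starch, had 6266 to 7707 CPM at 20°C and 2252 to 2703 CPM at 15.5°C (log2 fold change 1.55 ± 0.06). Lipase 3, comp59115_c1, had 131 to 152 CPM at 20°C and 29.9 to 37.1 CPM at 15.5°C (log2 fold change 2.09 ± 0.08, adjusted p = 1.8e-19). One pancreatic triacylglycerol lipase, comp60703_c1, fell, with 4.95 to 9.08 CPM at 20°C and 28.7 to 35.1 CPM at 15.5°C (log2 fold change -2.09 ± 0.11, adjusted p = 3.6e-16), and its call was lost without replicates 1 and 4 of 20°C, at -1.97.

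Immune genes were divided. Beta-1,3-glucan-binding protein, comp54433_c0, which recognises fungal and bacterial walls, had 3378, 3762, 3933, 3188 and 3658 CPM at 20°C, against 712, 701, 661, 673 and 609 CPM at 15.5°C (log2 fold change 2.42 ± 0.06, adjusted p = 5.9e-24). Peptidoglycan-recognition protein LB, comp54259_c0, an amidase that dampens the immune deficiency pathway in Drosophila, had 448 to 536 CPM at 20°C and 82.4 to 111 CPM at 15.5°C (log2 fold change 2.37 ± 0.09, adjusted p = 1.2e-19). Lysozyme, comp56573_c0, which digests bacterial walls, was the reverse of these, with 256, 251, 220, 234 and 230 CPM at 20°C, against 1230, 1046, 1034, 1123 and 1054 CPM at 15.5°C (log2 fold change -2.20 ± 0.06, adjusted p = 1.2e-22). A second lysozyme, comp54048_c0, fell by 0.68 on the log2 scale. Of 3 phenoloxidases, the enzymes of melanin synthesis, 2 fell, by 0.37 and 0.25 on the log2 scale. Over the list of immune defence and melanisation 2 of 9 rose and 5 fell, with a median of -0.25.

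In the list of amino acid metabolism 9 of 11 rose and 1 fell, with 2 called and a median of 0.52, while with library size alone 5 rose and 3 fell, with a median of 0.01. The 1 that fell, comp57128_c0 (-0.96), and 1 of those that rose, comp56953_c1 (1.36), are cysteine and histidine-rich proteins that are no enzymes of this pathway. Ornithine aminotransferase, comp59485_c0, a mitochondrial enzyme of arginine and proline metabolism, had 354, 366, 357, 288 and 325 CPM at 20°C, against 67.6, 58.6, 59.2, 64.9 and 58.2 CPM at 15.5°C (log2 fold change 2.45 ± 0.06, adjusted p = 1.7e-23). Alanine-glyoxylate aminotransferase 2, comp58163_c0, had 23.7 to 38.1 CPM at 20°C and 5.44 to 7.77 CPM at 15.5°C (log2 fold change 2.20 ± 0.10, adjusted p = 8.1e-18). Homogentisate 1,2-dioxygenase of tyrosine breakdown, comp59450_c0, rose by 1.67 ± 0.05 (93.5 against 29.3 CPM on average). Argininosuccinate synthase, comp54435_c0, rose by 1.93 ± 0.05 (306 against 80.0 CPM).

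In sugar and lipid metabolism the changes were mixed. The facilitated trehalose transporter Tret1, named for a carrier of the insect blood sugar trehalose, had 6 subcomponents, of which 3 rose and 3 fell. The called one, comp63612_c3, had 5.62, 6.01, 5.62, 4.18 and 5.58 CPM at 20°C, against 40.5, 43.1, 40.2, 43.8 and 42.0 CPM at 15.5°C (log2 fold change -2.85 ± 0.09, adjusted p = 5.0e-22), while the more abundant comp63446_c0, one of the targets named by the study, rose by 0.64 ± 0.05. Acid trehalase-like protein 1, comp63947_c1, named for enzymes that split trehalose, rose by 2.08 ± 0.07, with 57.6 to 70.3 CPM at 20°C and 13.4 to 17.0 CPM at 15.5°C. With effective counts this change was 1.18. Over carbohydrate metabolism 7 of 12 rose and 5 fell, with a median of 0.50, and with library size alone 5 rose and 5 fell.

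Acyl-CoA Delta(11) desaturase, comp64801_c1, which puts a double bond into fatty acids, had 2.25, 2.05, 2.57, 2.32 and 2.34 CPM at 20°C, against 12.99, 12.2, 12.4, 13.1 and 13.1 CPM at 15.5°C (log2 fold change -2.35 ± 0.17, adjusted p = 3.9e-13). It was the only call in lipid metabolism, where 6 of 10 rose, 3 fell and the median was 0.45, while with library size alone 4 rose, 5 fell and the median was -0.05. Among transporters and channels 9 of 28 rose and 16 fell, with a median of -0.54. All 4 organic cation transporters fell, with log2 fold changes of -2.15 to -1.09, and the sulfate anion transporter comp62926_c0 rose, with 67.9 to 73.9 CPM at 20°C and 12.3 to 15.6 CPM at 15.5°C (log2 fold change 2.32 ± 0.06, adjusted p = 7.0e-23). The mitochondrial list was split evenly, 14 of 28 higher and 14 lower, with a median of 0.01 (10 higher, 15 lower and -0.50 with library size alone). Beside the mitochondrial enzymes above, it holds zonadhesin and argininosuccinate synthase through their spelling only.

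**Figure D3:**
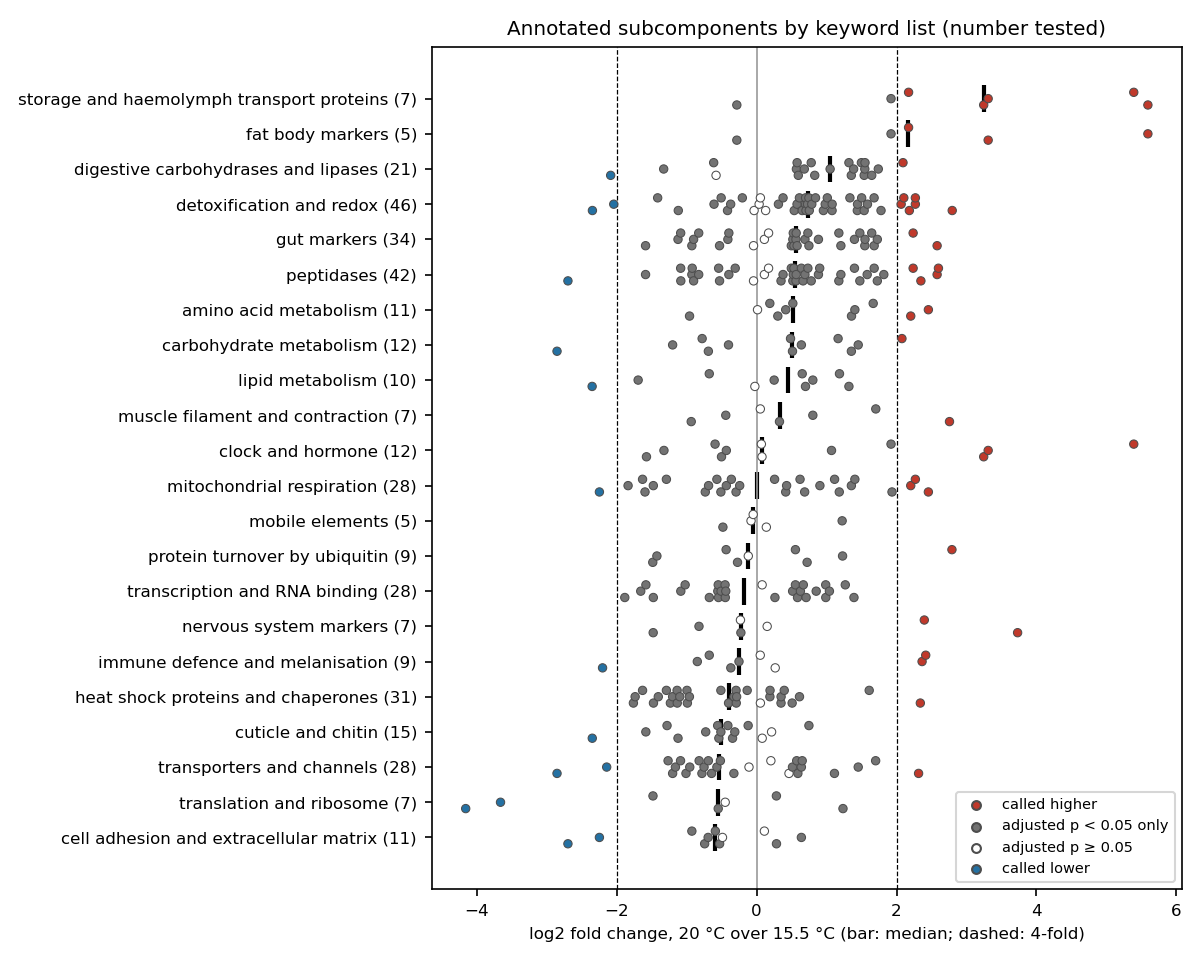
Log2 fold changes of 20°C over 15.5°C of the annotated subcomponents in each list with at least 5 members tested, with 1 point per subcomponent, red for called higher, blue for called lower, grey for an adjusted p below 0.05 only, white for neither, and a bar at the median. Storage and haemolymph transport proteins have the highest median at 3.25, and cell adhesion and extracellular matrix the lowest at -0.59.

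Chaperones fell more often than they rose. In the list of heat shock proteins and chaperones 9 of 31 rose and 21 fell, with a median log2 fold change of -0.40, and with scaling by library size alone 2 rose and 27 fell. All 6 subunits of the T-complex (CCT), the chaperonin of the cytosol that folds actin and tubulin, fell, with log2 fold changes of -1.48 to -0.99. The epsilon subunit, comp60198_c0, had 101, 105, 101, 106 and 104 CPM at 20°C, against 287, 276, 293, 298 and 283 CPM at 15.5°C (log2 fold change -1.48 ± 0.06, adjusted p = 8.5e-19). The mitochondrial chaperonin pair fell with them. Hsp60, comp60163_c0, had 116 to 125 CPM at 20°C and 290 to 305 CPM at 15.5°C (log2 fold change -1.29 ± 0.04), and its partner hsp10, comp63721_c5, had 32.1 to 37.6 CPM at 20°C and 102 to 122 CPM at 15.5°C (log2 fold change -1.63 ± 0.09).

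The hsp70 cognate of the endoplasmic reticulum, Hsc70-3 (BiP), comp58617_c2, had 355, 389, 373, 336 and 367 CPM at 20°C, against 1234, 1199, 1228, 1265 and 1160 CPM at 15.5°C. Its log2 fold change of -1.74 ± 0.04 (adjusted p = 5.9e-24) was just short of the 4-fold criterion, and protein disulfide-isomerase A6 and the neurotrophic factor homolog MANF, both of the same compartment, fell by 1.76 and 1.48. The mitochondrial Hsc70-5 fell by 0.96. The cytosolic Hsc70-4, comp64785_c1, rose by 0.19 ± 0.04 (2466 against 2163 CPM on average) and Hsp83, the hsp90 of insects, fell by 0.14 ± 0.04 (863 against 949 CPM), and Hsc70-4 was at -0.31 under scaling by library size alone and at -0.11 with effective counts.

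Small heat shock proteins, which hold unfolded proteins in solution, were 6 of the 9 members of this list that rose, and the other 3 were hsp70, DnaJ protein homolog 1 and Hsc70-4. Of 7 small heat shock proteins 6 rose and 1, comp60046_c1, fell, though with scaling by library size alone 2 rose and 3 fell. Lethal(2)essential for life, comp54376_c0, had 214, 250, 239, 214 and 235 CPM at 20°C, against 47.2, 44.8, 42.1, 50.1 and 43.5 CPM at 15.5°C (log2 fold change 2.34 ± 0.06, adjusted p = 6.1e-24), and hsp23, comp54992_c0, had 181, 197, 208, 179 and 195 CPM at 20°C, against 63.4, 62.6, 64.5, 61.3 and 63.4 CPM at 15.5°C (log2 fold change 1.61 ± 0.05, adjusted p = 8.0e-22). The heat-inducible hsp70 subcomponent comp64140_c1 had 235 to 268 CPM at 20°C and 189 to 210 CPM at 15.5°C, a log2 fold change of 0.35 ± 0.05 with TMM and -0.15 with library size alone. Its hsp70 B2 contig, comp64140_c1_seq7, was nearly absent, with 0 to 0.711 CPM at 20°C and 0 to 0.440 CPM at 15.5°C, and did not pass the test, while it averaged 794 CPM at 28.6°C.

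Some subcomponents named for proteins of ribosome assembly and translation were lower at 20°C. Nucleolar protein 6, comp56037_c0, of the small ribosomal subunit's assembly, had 6.30, 5.37, 4.98, 5.58 and 4.77 CPM at 20°C, against 20.9, 21.6, 21.5, 22.8 and 22.7 CPM at 15.5°C (log2 fold change -2.0 ± 0.10, adjusted p = 7.4e-17), at the very threshold of a call, which was lost without replicate 3 or 5 of 20°C or replicate 4 or 5 of 15.5°C. The cell growth-regulating nucleolar protein LYAR, comp59653_c0, had 2.79 to 3.86 CPM at 20°C and 14.02 to 16.7 CPM at 15.5°C (log2 fold change -2.04 ± 0.12), and AATF, comp56623_c0, another nucleolar protein, had 1.86 to 3.76 CPM at 20°C and 14.02 to 18.3 CPM at 15.5°C (log2 fold change -2.24 ± 0.14). An isoleucine-tRNA ligase, comp54870_c0, which charges tRNA, fell by 1.48 ± 0.06.

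A subcomponent annotated as elongation factor 1-alpha, comp58442_c0, had the largest fall of a named gene, to 0, 0.256, 0.321, 0.465 and 0.711 CPM at 20°C, against 10.3, 10.1, 10.4, 13 and 11.5 CPM at 15.5°C. This was 12 counts against 577 (log2 fold change -4.16 ± 0.28, adjusted p = 7.9e-14). Elongation factor 2, comp61619_c0, had 0.161 to 0.508 CPM at 20°C and 6.61 to 8.27 CPM at 15.5°C, or 11 counts against 384 (log2 fold change -3.66 ± 0.21). The factor 1-alpha brings aminoacyl-tRNA to the ribosome and the factor 2 moves the ribosome along mRNA. Genes of these names are usually among the most abundant in a cell, while both subcomponents were scarce at every temperature and at a trace at 25°C also, with means of 0.461 and 0.282 CPM. The best protein matches were 82.1% and 62.3% identical, and what these scarce subcomponents are was not tested. The reference transcript elongation factor 1-beta, comp51037_c0, was at 334 to 415 CPM at 20°C and 270 to 339 CPM at 15.5°C and rose by 0.28 ± 0.08 (-0.22 with library size alone). In the list of translation and ribosome 2 of 7 rose and 4 fell, with a median of -0.55. That median is the value of the transcription elongation factor SPT4, comp55251_c0, which the list holds through its spelling only. The scarce factors 1-alpha and 2 are also among those that fell. In transcription and RNA binding 13 of 28 rose and 14 fell, with a median of -0.18 (6 and 16 with library size alone), and in ubiquitin-dependent turnover 4 of 9 rose and 4 fell, with a median of -0.12 (3 and 5 with library size alone).

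Exonuclease 1, comp59913_c0, of DNA repair, had 0.465 to 2.03 CPM at 20°C and 9.49 to 12.3 CPM at 15.5°C (log2 fold change -2.68 ± 0.20, adjusted p = 1.3e-12). Dopamine N-acetyltransferase, comp62790_c5, which acetylates dopamine in nerve and cuticle, had 2.47 to 4.87 CPM at 20°C and 17.5 to 22.1 CPM at 15.5°C (log2 fold change -2.28 ± 0.13, adjusted p = 9.0e-16). Mobility group protein 1A, comp38073_c0, a chromatin protein, fell by 1.89 ± 0.07, with 110 to 131 CPM at 20°C and 414 to 487 CPM at 15.5°C. The RNA-binding protein squid, comp60548_c0, fell by 1.09 ± 0.05.

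Cuticle proteins, which build the exoskeleton with chitin, fell in 9 of 10 cases and none rose. Larval cuticle protein 1, comp61138_c1, had 1538 to 1760 CPM at 20°C and 2657 to 2988 CPM at 15.5°C (log2 fold change -0.73 ± 0.07), and the scarce cuticle protein 8, comp54373_c0, had 0.465 to 2.17 CPM at 20°C and 8.56 to 10.6 CPM at 15.5°C (log2 fold change -2.35 ± 0.20). With peritrophins and chitinases added, 1 of 15 rose and 12 fell, with a median of -0.51. Cell adhesion and extracellular matrix genes fell in 7 of 11 cases and rose in 2, with a median of -0.59. Among these the subcomponent named for zonadhesin and tenascin-X, comp62844_c0, had 29.0, 28.8, 28.9, 20.9 and 30.2 CPM at 20°C, against 141, 133, 136, 135 and 134 CPM at 15.5°C (log2 fold change -2.25 ± 0.09, adjusted p = 1.2e-18). The best match of its protein was 27.4% identical, so that the name says little of its role. The keywords of the cell adhesion list also catch a collagenase, comp55333_c0, which rose, and the chymotrypsin and collagenase comp64589_c1. They catch comp60990_c0 too, which fell and is named for a protease inhibitor and a mucin. These members are also in the list of peptidases.

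Genes of muscle, the tissue the dissection favoured, were present in every library. The list of muscle filament and contraction summed to 4878 to 5716 CPM at 20°C and 5058 to 5674 CPM at 15.5°C, with all 7 members above 0 at both temperatures, 4 of them higher, 2 lower and a median of 0.33, which turned with library size alone to 3 higher, 4 lower and a median of -0.17. Troponin I, comp62634_c1, which holds muscle relaxed and served the study as a reference, had 2679 to 3372 CPM at 20°C and 2324 to 2850 CPM at 15.5°C. The groups overlapped, and the log2 fold change was 0.33 ± 0.06 with TMM and -0.17 with library size alone. Muscle-specific protein 20, comp64509_c1, fell by 0.94 ± 0.05. The only call of the list was titin, comp60551_c0, at 70.6, 29.2, 26.0, 153 and 22.7 CPM at 20°C, against 7.89, 6.18, 7.86, 7.92 and 6.26 CPM at 15.5°C. It was highest in replicates 1 and 4, and its log2 fold change of 2.76 ± 0.37 (adjusted p = 2.4e-07) became 1.80 without them, under the criterion.

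Markers of other tissues were present beside muscle at both temperatures. The gut list, of 34 members all above 0, summed to 28090 to 34050 CPM at 20°C and 14510 to 15740 CPM at 15.5°C, with 22 higher and 9 lower and a median of 0.56, while with library size alone 14 were higher and 12 lower, with a median of 0.06. The fat body list, of 5 members all above 0, summed to 161200 to 193200 CPM at 20°C and 22590 to 24320 CPM at 15.5°C, with 4 higher, 1 lower and a median of 2.17. The haemocyte list, of 3 members, all phenoloxidases, summed to 333 to 349 CPM at 20°C and 398 to 422 CPM at 15.5°C, with 2 lower and a median of -0.25. The list of nervous system markers summed to 195 to 210 CPM at 20°C and 285 to 319 CPM at 15.5°C, with 2 of 7 higher, 3 lower and a median of -0.23 (2 higher and 5 lower with library size alone), and 3 of its 7 members, axonemal dyneins and MANF, are no neuronal markers. No annotation matched the list of silk gland markers. Most gut members are also in the lists of peptidases and of carbohydrases, and all fat body members in that of storage proteins. The part of a different share of gut or fat body in the pieces dissected was not tested.

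A few regulators stood out. The E3 ubiquitin-protein ligase RNF139, comp63534_c0, one of the targets named by the study, had 82.6, 85.4, 83.0, 80.4 and 77.6 CPM at 20°C, against 12.1, 11.1, 12.4, 11.1 and 11.5 CPM at 15.5°C (log2 fold change 2.79 ± 0.06, adjusted p = 3.2e-25). Lysine-specific demethylase 6A, which removes methyl groups from histone H3, was called in both subcomponents that carry its name. The larger, comp63636_c0, had 122, 129, 114, 125 and 120 CPM at 20°C, against 20.6, 17.2, 21.3, 19.7 and 21.9 CPM at 15.5°C (log2 fold change 2.59 ± 0.06, adjusted p = 4.9e-24), and the other, comp55606_c0, rose by 2.70 ± 0.12. The PI-PLC X domain-containing protein 1, comp57250_c0, had 148 to 160 CPM at 20°C and 25.2 to 28 CPM at 15.5°C (log2 fold change 2.50 ± 0.06, adjusted p = 5.9e-24).

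Axonemal dynein, the motor of cilia and sperm tails, was called in both heavy chains that carry its name. Heavy chain 5, comp61236_c3, had 35.1, 35.1, 39.7, 41.8 and 37.1 CPM at 20°C, against 2.41, 2.41, 1.85, 3.43 and 3.02 CPM at 15.5°C (log2 fold change 3.73 ± 0.11, adjusted p = 5.0e-22), but 5.20% of its reads fit 1 contig only, and on those alone the log2 fold change was 0.67. Heavy chain 6, comp63382_c6, had 13.9 to 16.4 CPM at 20°C and 1.54 to 3.64 CPM at 15.5°C (log2 fold change 2.40 ± 0.14). Other calls given above also had few reads that fit 1 contig only. Their share was 1.10% for lysine demethylase 6A comp63636_c0, 2.02% for lysozyme comp56573_c0 and 0% for beta-1,3-glucan-binding protein and exonuclease 1. In the list of clock and hormone genes 5 of 12 rose and 5 fell, with a median of 0.07, and with library size alone 5 rose and 7 fell, with a median of -0.43. Its 3 calls are BJSP-2 subcomponents, which the list holds through the hormone in their name, while 4 subcomponents named takeout or circadian clock-controlled protein, carriers of small lipids that follow the clock in Drosophila, fell, with log2 fold changes of -1.33 to -0.43, and the nuclear hormone receptor HR38 fell by 1.58 ± 0.16. Of 5 mobile elements 1 rose and 1 fell, with a median of -0.05 (1 and 4 with library size alone).

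Outside the annotation, comp66013_c0 and comp48518_c0 had the highest log2 fold changes of the unnamed subcomponents that met the naming criteria. The first had 18.2, 15.5, 18.3, 17.7 and 21.6 CPM at 20°C, against 0.0962, 0.185, 0.231, 0.591 and 0.216 CPM at 15.5°C (log2 fold change 5.27 ± 0.16, adjusted p = 2.7e-22), and its mean at 25°C and 28.6°C was 22.7 and 21.8 CPM, so that 15.5°C was the only pool that all but lacked it. The second was uneven, with 3.82 to 17.2 CPM at 20°C and 0 to 0.462 CPM at 15.5°C (log2 fold change 4.74 ± 0.84, adjusted p = 1.6e-05). At the other end, comp55239_c0 had 2.32 to 3.69 CPM at 20°C and 32.4 to 34.1 CPM at 15.5°C (log2 fold change -3.40 ± 0.12), and comp58806_c0 had 0.465 to 1.28 CPM at 20°C and 9.37 to 10.8 CPM at 15.5°C (log2 fold change -3.14 ± 0.18).

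The study drew 31 target transcripts from these libraries, so their changes are no independent evidence. As subcomponents 15 rose and 13 fell, RNF139 was called higher and zonadhesin lower, 3 did not pass the adjusted p, and the log2 fold changes ran between -2.25 and 2.79 with a median of 0.26. The 3 that did not pass were carbonic anhydrase 2, which was near 0 with 0.682 against 0.425 CPM on average, the copper chaperone, at 12.9 against 12.9 CPM, and phenoloxidase subunit 2, at 7.33 against 5.86 CPM. Alpha-amylase A (0.58), the apoptosis inhibitor IAP (0.60), aquaporin (0.59), carbonyl reductase (0.61) and chymotrypsin-1 (0.52) rose by similar log2 amounts, each of which was 0.02 to 0.11 with library size alone. The subcomponent named for apolipoprotein D and henna, comp64492_c0, averaged 147 CPM at 20°C and 130 CPM at 15.5°C, a log2 fold change of 0.19 ± 0.07 that turned to -0.31 with library size alone and lost its adjusted p without replicate 2 of 20°C. The unnamed reference comp60946_c5 was at 0.49 ± 0.08 with TMM and at -0.01 with library size alone. The mitochondrial ATPase inhibitor rose by 1.11, the mitochondrial enolase superfamily member by 1.35 and the Arf-GAP by 1.65. Procollagen-lysine dioxygenase fell by 0.59, TRAP-beta of the protein translocation pore by 0.49, phosphoglucomutase by 0.40 and the mitochondrial translocator assembly and maintenance protein TAM41 by 0.24. As single contigs 30 of the 31 could be tested, with 1 called higher and 3 lower, the last being zonadhesin, mobility group protein 1A and RNA-binding protein Rsf1, comp55145_c0. Rsf1 showed the difference that the choice of unit makes, with a log2 fold change of -2.28 for the target contig and -1.58 for the sum of its subcomponent.

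The step at the cool end was set against the step at the hot end, 28.6°C against 25°C, which shares no library with it. All libraries of 28.6°C were short-read, while at 25°C only replicate 1 was, and replicates 2 to 5 had a longest read position of 188. Temperature and read form therefore cannot be fully told apart at the hot step. The difference between the steps passed an adjusted p of 0.05 and a size of 2 on the log2 scale in 989 subcomponents, with the cool step the higher one in 537 (3.53% of those tested) and the lower one in 452 (2.97%). With read form as a covariate the number of subcomponents was 1005. At the hot step 29.8% of all subcomponents rose and 29.4% fell by the adjusted p. Of the 192 called higher at 20°C, 27 rose and 98 fell at the hot step, with a median log2 fold change of -0.48 against 0.01 over all tested, and of the 65 called lower 12 rose and 27 fell, with a median of -0.24. The 192 include 41, given below, that were high in replicates 1 and 4 of 20°C and were lost without them. The share of comp65386_c0 was 4.91% to 15.1% at 28.6°C and 0.49% to 1.93% at 25°C, and its part in the hot step was not tested.

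The 4 abundant hexamerin-type storage proteins rose at the cool step and fell at the hot one, by 0.60 to 1.21 on the log2 scale. The scarce comp64679_c0 and vitellogenin, at means of 0.852 and 0.258 CPM at 25°C and 1.40 and 0.534 CPM at 28.6°C, did not pass the adjusted p at the hot step. The main arylphorin averaged 14780, 146500, 11060 and 4775 CPM at 15.5, 20, 25 and 28.6°C, and its cool step exceeded its hot step by 4.52 on the log2 scale (adjusted p = 1.1e-20). Chymotrypsin BI averaged 279, 1669, 299 and 64.1 CPM in the same order, with a difference of 4.8 between the steps (adjusted p = 1.4e-26). RNF139, at 11.6, 81.8, 139 and 90.6 CPM, and lysine demethylase 6A, comp63636_c0, at 20.2, 122, 322 and 387 CPM, had means at 25°C above those at 20°C. Chaperones of the endoplasmic reticulum and the mitochondria had the reverse course, and Hsc70-3 averaged 1217, 364, 402 and 1581 CPM, with a difference of -3.71 between the steps (adjusted p = 3.5e-29). The course was not particular to them. The T-complex epsilon subunit of the cytosol, comp60198_c0, had 276 to 298, 101 to 106, 92.5 to 108 and 466.5 to 593 CPM in the same order. Lysozyme, at 1098, 238, 87.2 and 329 CPM, and nucleolar protein 6, at 21.9, 5.40, 5.49 and 12.8 CPM, also fell at the cool step and rose at the hot one, with differences of -4.11 and -3.19. For lethal(2)essential for life, at 45.5, 231, 689 and 3038 CPM, both steps were rises, and they differed by 0.20 (adjusted p = 0.022). Zonadhesin fell at both, at 136, 27.6, 22.6 and 1.64 CPM.

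**Figure D4:**
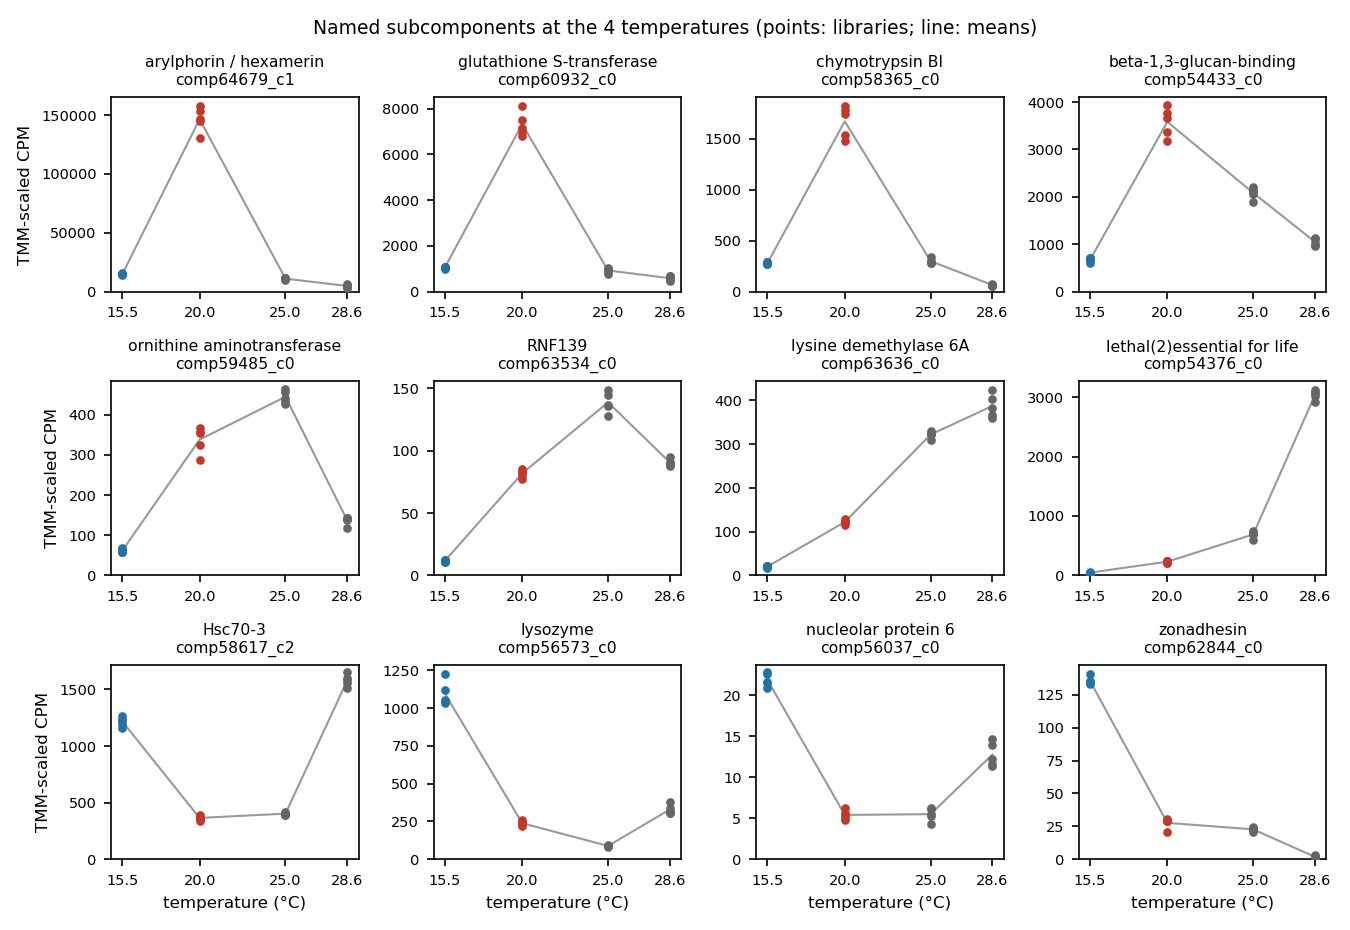
TMM-scaled CPM of 12 named subcomponents at 15.5, 20, 25 and 28.6°C (x axis), with 1 point per library, a line through the means and a linear y axis that starts at 0. Arylphorin and chymotrypsin BI peak at 20°C, at 146500 and 1669 CPM, while Hsc70-3 is lowest there and lethal(2)essential for life rises at each step, to 3038 CPM at 28.6°C.

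Taken by contig in place of subcomponent, 30413 contigs were tested, of which 685 were called higher (2.25%) and 422 lower (1.39%). Only 209 of the 685 and 69 of the 422 lay in subcomponents called in the same direction, and for 331 and 289 of them the summed change was under 2-fold. In 31 subcomponents 1 contig was called higher and another lower. Since eXpress divides shared reads by probability, a switch between contigs can be a change of isoform or of this division, which was not tested. Of these subcomponents 2 met the naming rule for switches. In comp64080_c0, named for the serine proteases persephone and snake of the Toll pathway in Drosophila, contig seq2 had 409, 396, 370, 436 and 382 CPM at 20°C, against 43.7, 46.7, 44.3, 65.2 and 47.3 CPM at 15.5°C (log2 fold change 3.01 ± 0.24). Contig seq5 of the same subcomponent fell, with 1.77 to 4.90 CPM at 20°C and 10.9 to 18.1 CPM at 15.5°C (log2 fold change -2.24 ± 0.30), and the sum changed little, at 968 against 1198 CPM on average (log2 fold change -0.31 ± 0.06). The loss of seq5 is far too small to offset the rise of seq2, so most of what offset it lay in contigs not named here. In the unnamed comp65141_c0 the contigs seq7 and seq12 changed by 2.90 ± 0.45 and -2.19 ± 0.39 and the sum by 0.17 ± 0.07, a change that turned to -0.34 with library size alone and did not pass the adjusted p when any 1 of 5 of the libraries was left out.

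Replicates 1 and 4 of 20°C, with most ribosomal-like counts and the smallest depth, decided part of the calls. Without both, 126 of 15050 subcomponents were called higher (0.837%) and 70 lower (0.465%), among them 122 of the 192 and 60 of the 65 called with all libraries. Of the 70 higher calls that were lost, 38 fell under the filter on low counts, 37 had both libraries at least 4 times above every other 20°C library, and 3 were annotated. With replicates 2, 3 and 5 left, a subcomponent present only at 20°C cannot pass the filter of at least 2 CPM in at least 4 libraries. A loss through the filter therefore does not by itself show that a call rested on replicates 1 and 4. Of the 192, the 41 in which replicates 1 and 4 exceeded the other 20°C libraries by more than 1 on the log2 scale were all lost, and of the 151 others 122 were called again. The unnamed comp63860_c1 shows the pattern, with 705, 85.1, 88.8, 3929 and 72.0 CPM at 20°C, against 88.6, 90.4, 83.6, 88.2 and 82.6 CPM at 15.5°C. Its log2 fold change of 3.44 ± 0.69 became -0.11 without the 2 libraries, and those of comp59702_c5 and comp62648_c1, 6.27 and 5.78, became 0.77 and 0.09. The order of such values follows the share of comp65386_c0, 77.0% and 45.0% in these libraries, and what part that share has in them was not tested. Of the named calls above, titin, CYP4g15 and the lipase comp60703_c1 were lost without the 2 libraries. Vitellogenin, at 20.5 to 26.2 CPM in the libraries of 20°C, fell under the filter and was not tested there. For the main arylphorin, chymotrypsin BI and lysozyme the log2 fold changes without the 2 libraries were 3.34, 2.65 and -2.25.

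**Figure D5:**
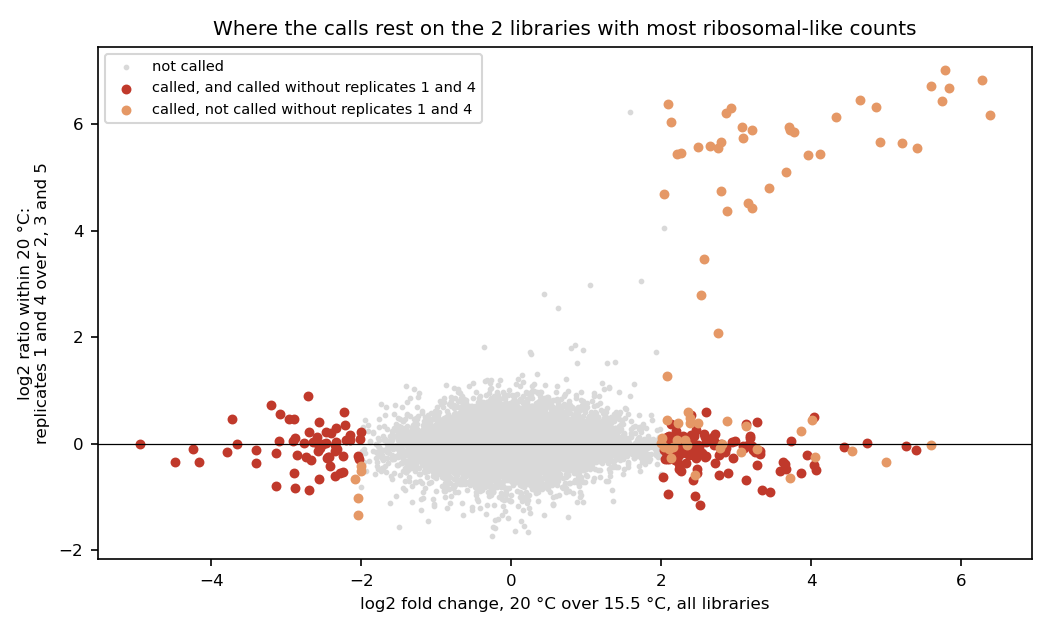
For every subcomponent tested, the log2 fold change of 20°C over 15.5°C with all libraries (x axis) against the log2 ratio of replicates 1 and 4 over replicates 2, 3 and 5 within 20°C (y axis, 0.5 CPM added to each level), with calls that were also made without replicates 1 and 4 in red and calls that were not in orange. The 41 subcomponents called higher with a ratio above 1 are all orange, and 122 of the other 151 are red.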

How the data were processed

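Thorax RNA of pooled larvae was sequenced in 20 libraries, 5 at each of 4 temperatures, and samples were grouped by the temperature in their titles. Reads were trimmed with Trim Galore 0.3.0, overlapping pairs were joined, and reads were mapped with Bowtie2 2.0.6 to contigs assembled without a genome. No build is involved, and no sequence is shown. Estimated counts and effective counts were made by the authors with eXpress 1.5.1, which divides reads between contigs by probability, and the deposited files also give whole counts of all and of unique reads. FPKM values were computed by the authors' eXpress run, and were used only to find that the deposited log2 table, made by the authors from transcripts listed as differentially expressed with edgeR 1.2.4, holds log2(FPKM + 1) centred per transcript in all 2586 rows within 0.01. That table served for names. The parameter files of eXpress gave the longest read position.

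Estimated counts of 135858 contigs were summed to 79613 subcomponents, rounded, and fitted in R 4.3.3 with edgeR 4.0.16 (quasi-likelihood, TMM, 1 coefficient per temperature over all 20 libraries, at least 2 CPM in at least 4 libraries, prior count of 2 for fold changes), without comp65386_c0. The Benjamini-Hochberg adjustment ran over all features tested. The value after ± is the spread at which the printed fold change would give the test's F statistic. Because the prior count pulls fold changes of scarce features toward 0, this value is too small for some of them. Tables were made in Python 3.11.15. The procedure was tried on simulated counts with known changes at 20°C. These had the same spread in all subcomponents, no excess in replicates 1 and 4 of 20°C and no difference in read form. The simulation therefore says nothing of how these features act on the calls. Depth was 6756103 to 14236152 estimated counts per library with comp65386_c0 included, and 2485595 to 14075957 in the counts fitted, without it. It limits precision to counting error and preparation only, not to animals. No 2 libraries of a temperature agreed within sampling noise (chi-square over its degrees of freedom 1.23 to 15.5 over 20 pairs), so all counted.

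Named genes are the 12 highest and 12 lowest log2 fold changes among annotated subcomponents called with and without replicates 1 and 4 of 20°C, with a mean of at least 10 CPM at 1 temperature and no overlap, the 2 highest and 2 lowest of those without a name, the study's 31 targets and 3 references, up to 2 called members in each direction per keyword list, and up to 4 subcomponents with opposite contigs, of which 2 qualified. The other genes named were chosen after their values were seen. The comparison, the members and the lists were chosen with earlier results of these data known. Alternatives were other scalings, filters, count columns, tests, criteria, read forms, a replicate block, each library left out, DESeq2 1.42.0, and, added after seeing the data, short-read libraries without replicates 1 and 4 of 20°C. The field assays of the study were not analysed here.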

Additional observations from a re-analysis of the deposited data

Results flagged for a closer look

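In 302 groups of 5 libraries of the named items, 23 had a library farther from the others than Dixon's limit of 0.71 of the range. The usual chance rate of about 1 in 20 is no yardstick for this count. Some items, among them comp63860_c1, comp59702_c5 and comp62648_c1, were chosen after their values were seen, and some genes enter both as subcomponent and as contig. Of those at 20°C, most were in replicate 4, the library with the smallest depth. It was highest for 3 unnamed subcomponents, at 3929 CPM for comp63860_c1 (others 72.0 to 705), 1740 CPM for comp59702_c5 (4.26 to 325) and 1139 CPM for comp62648_c1 (3.15 to 229), and replicate 1 was next in each. Replicate 4 was also highest for the apoptosis inhibitor IAP, at 58.6 CPM (46.6 to 49.9), and for the sulfate anion transporter comp62926_c0, at 73.9 CPM (67.9 to 69.4).

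It was lowest for Tret1 comp63612_c3, at 4.18 CPM (5.58 to 6.01), zonadhesin, at 20.9 CPM for the subcomponent (28.8 to 30.2) and 19.6 CPM for the target contig (26.0 to 27.7), the target contig of protein henna, at 33.9 CPM (43.6 to 46.4), the protease subcomponent comp64080_c0, at 911 CPM (967 to 990.0), RNA-binding protein squid, at 609 CPM (693 to 712), and peroxiredoxin-6, at 81.4 CPM (110 to 120). In replicate 5 of 20°C the Arf-GAP contig comp62480_c4_seq2 was high, at 9.34 CPM (6.24 to 7.09).

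At 15.5°C, replicate 5 was low for lysine demethylase 6A comp55606_c0, at 2.16 CPM (2.72 to 2.89), and for ADAM22, at 7.66 CPM (10.4 to 11.3). Replicate 4 was high for comp66013_c0, at 0.591 CPM (0.0962 to 0.231), and for the persephone contig comp64080_c0_seq2, at 65.2 CPM (43.7 to 47.3), and low for the hsp23 contig comp54992_c0_seq1, at 61.5 CPM (63.8 to 64.6), and for Rsf1 comp55145_c0, at 42.3 CPM (45.7 to 46.6). Replicate 1 was high for the circadian clock-controlled protein comp57418_c0, at 108 CPM (95.0 to 98.1), and for the troponin I contig comp62634_c1_seq14, at 1330 CPM (1013 to 1094). Replicate 3 was high for comp48518_c0, at 0.462 CPM (0 to 0.118), and replicate 2 for the hsp70 B2 contig comp64140_c1_seq7, at 0.440 CPM (0 to 0.116). No explanation was tested for these.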

How the results depend on the processing

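Counts of subcomponents called at 20°C against 15.5°C (192 higher, 65 lower) moved by over 1.5 times in these settings. Higher calls numbered 126 without replicates 1 and 4 of 20°C, 113 with library size alone, 327 without a filter, 109 with at least 10 counts per library of a group and 420 with effective counts. Lower calls numbered 25 in short-read libraries only, 168 with library size alone, 176 without a filter, 196 with effective counts and 98 with unique counts. Short-read libraries without replicates 1 and 4 of 20°C, a choice made after seeing the data, gave 105 higher and 32 lower. Where only short-read libraries are kept, 15.5°C has replicates 1 and 2 alone. A subcomponent present only at 15.5°C then cannot pass the filter of at least 2 CPM in at least 4 libraries. The same holds for one present only at 20°C without replicates 1 and 4 of 20°C, so part of the drop in these settings was fixed by the filter. Other criteria gave 4586 and 4109 (adjusted p alone), 933 and 692 (fold change of 2) and 525 and 339 (glmTreat against a fold change of 2).

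For contigs (685 higher, 422 lower) the moved counts were 440 higher with the 10 libraries only, 386 higher and 875 lower with library size alone, 396 higher with at least 10 counts, 683 lower without a filter, 294 higher and 142 lower with unique counts, 221 lower in short-read libraries, 410 and 247 in short-read libraries without the 2 replicates, 4617 and 4234 by adjusted p alone and 2319 and 1809 at a fold change of 2. The same limits of the filter hold for contigs, and beyond them the cause was not tested.

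Leaving out each library in turn gave 165 to 193 higher and 57 to 66 lower subcomponents, 599 to 683 higher and 378 to 475 lower contigs, and 970 to 1006 subcomponents whose cool step differed from the hot step (989 with all). DESeq2 gave 249 higher and 91 lower subcomponents and 1232 differences between the steps. The labels do not say whether libraries of the same replicate number share any handling. Deviations of same-numbered libraries correlated above 0.1 in 2 of 5 pairs and 2 of 5 libraries of 20°C correlated best with their own number. Read form was the same at 20°C and 15.5°C for replicates 1, 2 and 3. With a replicate block 187 subcomponents were higher and 64 lower, and of the named items nucleolar protein 6, comp56037_c0, fell under the criteria with it, at -1.99, and the contig of elongation factor 1-beta passed the adjusted p newly.

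For 148 named items tested, in 3956 combinations of item and setting, 3797 kept direction and side of their threshold, 112 fell under it, 13 passed it newly and 34 turned. The threshold was that of a call for items called and the adjusted p for the others. The turned values belong to 20 items, 17 of which turned with library size alone. Log2 fold changes there were -0.15 for hsp70 (comp64140_c1), -0.31 for Hsc70-4 and for apolipoprotein D/henna, -0.22 for elongation factor 1-beta and its contig, -0.17 and -0.06 for troponin I and its contig, -0.01 and -0.04 for the unnamed reference and its contig, -0.34 for comp65141_c0, -0.10 for the lethal(2)essential for life subcomponent comp62474_c2, and, for items past no threshold, -0.45 for the copper chaperone and for peptidoglycan-recognition protein 2, -0.22 and -0.18 for phenoloxidase subunit 2 and its contig, -0.35 for the TAM41 contig and -0.15 for that of carbonic anhydrase 2. Effective counts gave -0.11 for Hsc70-4, -0.20 and -0.21 for phenoloxidase subunit 2 and its contig, -0.08 for the TAM41 contig and -0.01 for the copper chaperone and peptidoglycan-recognition protein 2. No filter gave -0.07, -0.03 and -0.08 for the copper chaperone, the TAM41 contig and that recognition protein. Carbonic anhydrase 2 and its contig were at -0.12 and -0.22 with unique counts, and the contig at -0.02 with read form as a covariate. Leaving out single libraries gave -0.04 to 0.25 for this contig, -0.02 to 0.08 for the copper chaperone, -2.05 to -1.95 for nucleolar protein 6 and 1.38 to 3.75 for comp63860_c1. The last was at -0.11 without replicates 1 and 4 of 20°C and at -0.20 in short-read libraries without them, where comp62648_c1 was at -0.70. Depth limits subcomponents near 2 CPM, which have few counts in replicate 4 of 20°C.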
